A study of Homo sapiens with 10 samples.

Results

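The genes described here are those that mark replication origins and load the replicative helicase onto them: the origin recognition complex subunits ORC1, ORC2, ORC3, ORC4, ORC5 and ORC6, the loaders CDC6 and CDT1, and the CDT1 regulators GMNN and DTL. Each was taken as the probe set carrying that gene symbol alone, with the highest mean over the arrays where a gene had several. All 10 genes were found, each on 1 such probe set, among 14232 genes on single-symbol probe sets. ORC6 also shares a further probe set with another gene, which was not used.

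RNA of U2OS, an established human osteosarcoma line, was hybridised to Affymetrix exon arrays, which give 1 value per probe set here. Per the labels the cells were seeded at 25% density, grown for 30 h with 10% serum, and then given the CDK4 and CDK6 inhibitor PD0332991 (palbociclib) or its solvent DMSO for 4 h. Each treatment had 5 biological replicates. The labelled dose of 1 mM is doubtful, since micromolar doses are usual for this inhibitor, and the arrays cannot settle it.

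Each of the 10 arrays had log2 values for 21980 probe sets, and their medians ran from 6.95 to 7.06. The array names in the labels fall into 2 sets: replicates 1, 2 and 3 of both treatments (set 1) and replicates 4 and 5 of both (set 2). DMSO replicate 1 stood apart. Its median absolute deviation from the mean of its own treatment and set was 0.274 on the log2 scale, against 0.091 to 0.197 on the other arrays of set 1. The arrays of set 2 had 0.066 to 0.095, but each mean there covers only 2 arrays, which makes the deviation smaller. The main results of the licensing factors are given with and without this array. The differences of the other origin genes, and the correlations of DTL, CDC6 and ORC1 with all other genes, are given with it only. Of 8 mesenchymal and osteosarcoma markers, 6 (VIM, SPARC, COL1A1, RUNX2, FN1 and CDH2) had means above the medians of all arrays, and 4 of 5 measured blood cell markers had means below the highest lower quartile of the arrays. Of 6 measured epithelial markers, 3 (KRT8, KRT18 and CLDN4) were also above the medians. The mean level of each list overlapped between treatments (mesenchymal, 9.71 to 10.02 in DMSO and 9.78 to 10.00 treated; epithelial, 7.70 to 8.14 and 7.85 to 8.25; blood, 4.91 to 5.44 and 4.84 to 5.50).

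As background, the origin recognition complex binds DNA at origins, and in G1 phase CDC6 and CDT1 join it to load MCM helicases as inactive double rings, a step called licensing. Re-licensing within a cycle is prevented in S phase: the CRL4 ubiquitin ligase, with DTL (also called CDT2) as its substrate receptor, destroys CDT1, and geminin, the product of GMNN, binds and blocks it. ORC1, CDC6, CDT1, GMNN and DTL are known targets of the E2F transcription factors, which RB holds back until cyclin-dependent kinases phosphorylate it.

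Because several of these genes are known E2F targets, the E2F words in their promoters are shown before the values. RefSeq promoter windows on GRCh38.p14, from 250 bases before to 50 bases after an annotated start, were matched for all 10 genes (12 windows, with ORC4 and GMNN having 2 each). They were searched on both strands for the 4 words of the 8-letter E2F consensus (TTTGGCGC, TTTCCCGC, TTTGCCGC and TTTCGCGC) and for the same words without their first T. The 8-letter words were present in 5 of the 10 genes, DTL, CDT1, CDC6, GMNN and ORC3, and in 3.31% of all 35116 windows of this length. The 7-letter words were also present in ORC1, 6 genes in all, and in 13.0% of all windows. ORC2, ORC4, ORC5 and ORC6 held neither form. The following stretches of 30 bases read 5′ to 3′ in the direction of the gene, with the E2F words of the form named in capitals.
DTL (chr1:212035729-212035758, plus strand, 8-letter word ending at the base before the start): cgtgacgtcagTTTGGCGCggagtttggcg
CDT1 (chr16:88803743-88803772, plus strand, 8-letter word in reverse, starting 35 bases before the start): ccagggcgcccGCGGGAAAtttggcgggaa
CDC6 (chr17:40287875-40287904, plus strand, 8-letter word, starting 8 bases into the transcript): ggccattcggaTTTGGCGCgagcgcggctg
GMNN (chr6:24775322-24775351, plus strand, 8-letter word, starting 80 bases before the later start): gctgggtcggtTTTGGCGCgctctcacttc
ORC3 (chr6:87590112-87590141, plus strand, 8-letter word in reverse, starting 12 bases before the start): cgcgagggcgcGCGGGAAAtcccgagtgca
ORC1 (chr1:52404427-52404456, minus strand, 7-letter words only): ggccacgccgaTTGGCGCGAAgttttcttt

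In ORC1 the capitals join 2 overlapping 7-letter words, TTGGCGC and, on the other strand, TTCGCGC, and the first of them overlaps a reversed CCAAT. The 150 bases before the start are given for DTL and CDT1, which had the lowest 2 log2 differences of the 10, and for ORC5, a subunit with neither word, with the 7-letter words in capitals.
DTL (chr1:212035598-212035747, plus strand): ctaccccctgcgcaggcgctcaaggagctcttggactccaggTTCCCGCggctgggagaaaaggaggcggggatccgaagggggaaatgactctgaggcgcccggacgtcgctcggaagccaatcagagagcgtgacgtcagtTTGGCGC
CDT1 (chr16:88803639-88803788, plus strand): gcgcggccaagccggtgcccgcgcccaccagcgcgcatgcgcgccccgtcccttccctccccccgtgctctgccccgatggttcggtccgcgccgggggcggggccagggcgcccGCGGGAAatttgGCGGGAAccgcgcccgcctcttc
ORC5 (chr7:104208014-104208163, minus strand): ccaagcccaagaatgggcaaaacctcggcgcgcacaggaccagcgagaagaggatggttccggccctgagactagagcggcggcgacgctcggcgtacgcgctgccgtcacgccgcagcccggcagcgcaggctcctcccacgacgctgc

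Other motifs were searched too. CCAAT, the box bound by NF-Y, was present in ORC1, ORC2, ORC3, ORC6, CDC6, GMNN and DTL, 7 of the 10 genes, and in 34.6% of all windows. The cell cycle homology region, written as TTTGAA or TTCGAA, was in none of the 10 genes and in 16.4% of all windows. A match is a description of letters in a window and not of a bound site, and the words were searched with the expression results known.

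**Figure D1:**
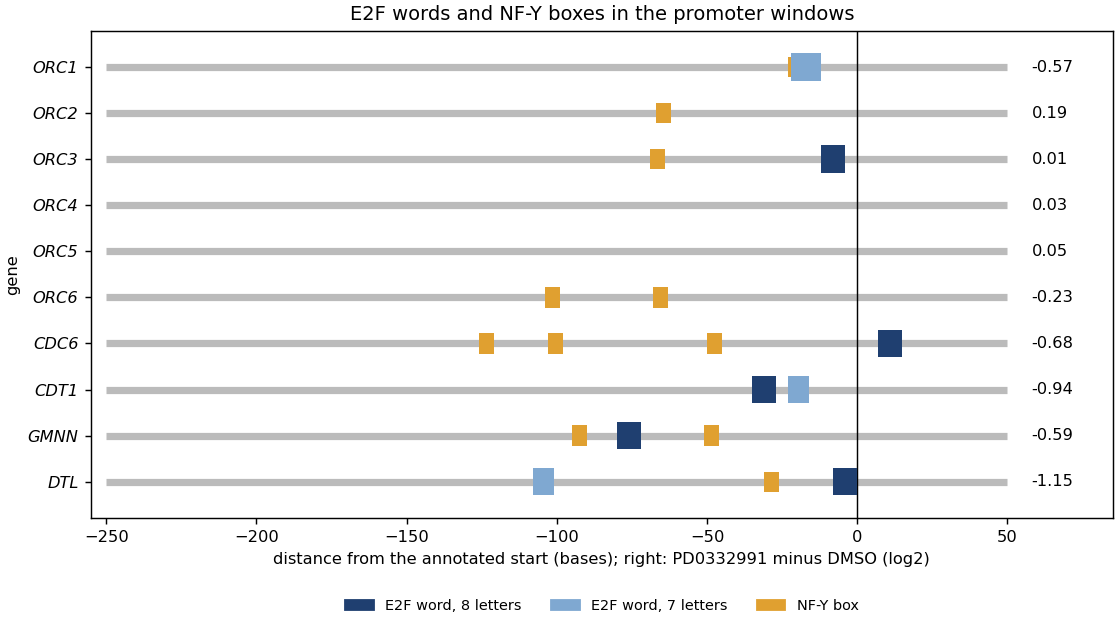
Positions of 8-letter E2F words, 7-letter E2F words and NF-Y boxes (CCAAT) in the promoter windows of the 10 genes, in bases from the annotated start (x axis); the log2 difference between PD0332991 and DMSO stands at the right of each gene. The windows of GMNN and ORC4 are drawn as 1 row each, and the marks of GMNN come from the window of its later start; ORC3 carries an 8-letter word and a difference of 0.01.

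DTL, CDT1, CDC6, GMNN and ORC1, 5 of the 10 transcripts, were at 45.1% to 67.4% of their DMSO level after 4 h of PD0332991, and ORC2, ORC3, ORC4, ORC5 and ORC6 lay between 85.3% and 114.0% of it. DTL alone passed limma's test over all probe sets, as lower (1 of 10 genes, where 0.0409% of all probe sets passed as lower and 0.00910% as higher). At an unadjusted limma p under 0.05, 5 of the 10 genes were lower and 0 higher, against 2.76% of all probe sets as lower and 1.41% as higher. The median log2 difference of the 10 genes was -0.40, and that of all probe sets was -0.02. Without DMSO replicate 1, DTL, CDT1, CDC6, GMNN and ORC1 all passed as lower (5 of 10 genes, against 0.0910% of all probe sets). Without any one of the other 9 arrays, 0 of the 10 genes passed. A bulk array cannot tell fewer cells in the phases that transcribe these genes from less RNA of them in each cell.

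**Figure D2:**
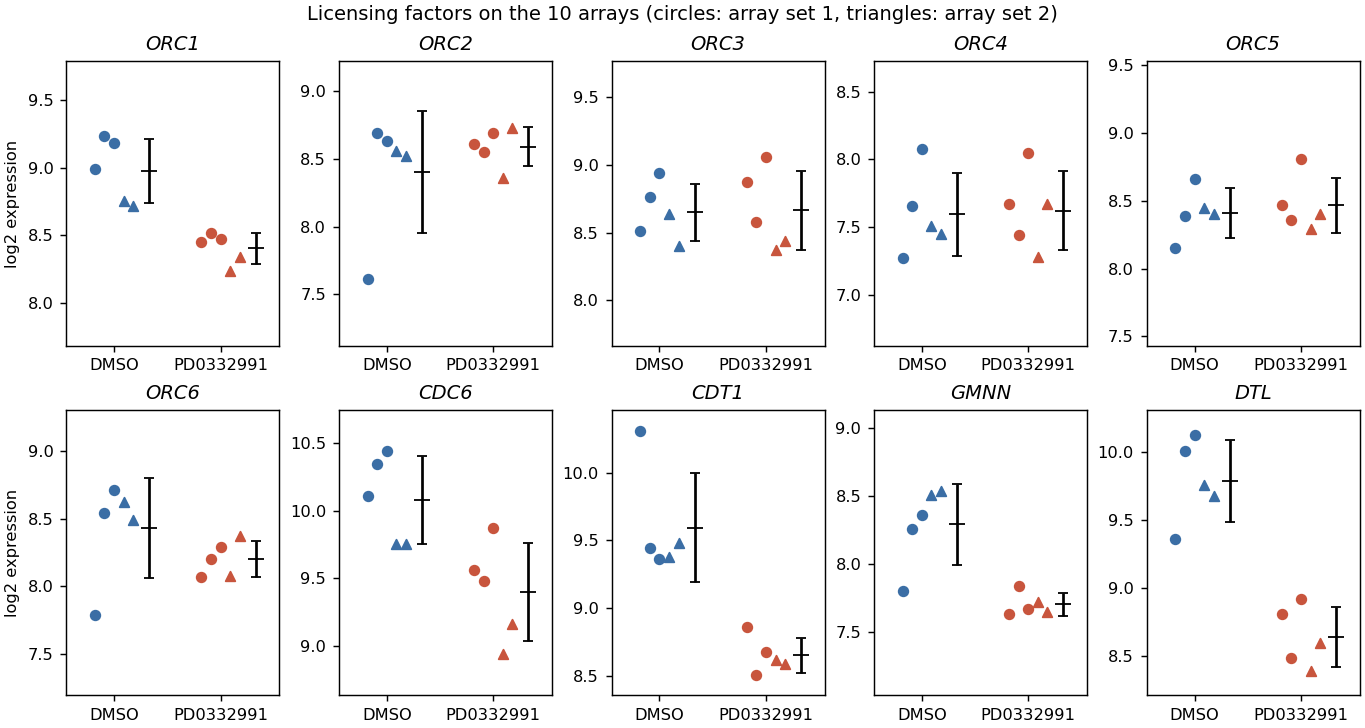
Log2 expression (y axis, 2.1 units high in every panel) of each gene on the 10 arrays; circles are array set 1, triangles array set 2, and the black bars give the mean and SD over 5 arrays. For ORC1, CDT1 and DTL every treated array lies below every DMSO array, and for ORC2 and ORC6 DMSO replicate 1 lies far below the other DMSO arrays.

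ORC1 encodes the largest subunit of the complex, an AAA+ ATPase that is degraded during S phase in human cells. Its log2 values in DMSO were 8.99, 9.23 and 9.18 in set 1 and 8.75 and 8.72 in set 2, and after PD0332991 they were 8.45, 8.52 and 8.47 in set 1 and 8.24 and 8.34 in set 2. Every treated array lay below every DMSO array, an order that 3 of the 10 genes (ORC1, CDT1 and DTL) and 0.560% of all probe sets had. The log2 difference was -0.57 ± 0.09 (SE, n = 5 arrays per treatment), or a level 1.48-fold lower (95% confidence interval 1.29 to 1.71), with a limma adjusted p of 0.117. Without DMSO replicate 1 the difference was -0.60 and the limma adjusted p 0.0495. ORC1 passed in 6 of the 21 alternatives run.

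The other 5 subunits gave no call in any of these alternatives. ORC2 and ORC3 belong to the stable core of the complex, ORC4 and ORC5 are AAA+ relatives of ORC1 in that core, and ORC6 is a smaller subunit that binds it more loosely. ORC2 held 7.61, 8.69, 8.63, 8.56 and 8.52 on the DMSO arrays and 8.61, 8.55, 8.69, 8.36 and 8.73 on the treated arrays. The first DMSO array was the low one, and the others overlapped the treated arrays. Its log2 difference was 0.19 (95% confidence interval -0.25 to 0.63), and -0.02 without that array.

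ORC6 held 7.79, 8.54, 8.71, 8.62 and 8.49 in DMSO and 8.07, 8.20, 8.29, 8.08 and 8.37 after treatment. DMSO replicate 1 again lay lowest, below all treated arrays, while the other 4 DMSO arrays lay above all of them. The log2 difference was -0.23 (95% confidence interval -0.60 to 0.15, limma adjusted p = 1.00), and -0.39 without DMSO replicate 1, which also did not pass. The differences of ORC3 (0.01, interval -0.27 to 0.29), ORC4 (0.03, -0.35 to 0.40) and ORC5 (0.05, -0.23 to 0.34) leave room for changes of up to about these bounds.

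ORC1 was set against each other subunit on the same arrays. The ORC1 value minus the ORC3 value was 0.32 ± 0.15 (log2, SD, n = 5 arrays) in DMSO and -0.26 ± 0.23 with PD0332991, a shift of -0.58 ± 0.13 (SE). Its shift was -0.76 ± 0.20 against ORC2, -0.60 ± 0.17 against ORC4 and -0.62 ± 0.13 against ORC5. All 4 gave an exact 2-sided permutation p of 0.0167, the smallest that 120 assignments within array sets can give, and 0.0375 after Benjamini-Hochberg adjustment over 9 pairs. Against ORC6 the shift was -0.34 ± 0.15 and did not pass (exact permutation p = 0.0333, adjusted p = 0.0600). The 4 pairs share the same ORC1 values, so they are not 4 separate results. Their adjusted p of 0.0375 depends on all 4 being tied at the floor. These 4 calls rest on p-values at their floor. They were lost, at an exact permutation adjusted p of 0.05 to 0.0750, when DMSO replicate 1, 2 or 5 or PD0332991 replicate 1, 2 or 3 was left out, and after quantile normalization or cyclic loess, while the shifts kept their sign. Without DMSO replicate 1 the shift of ORC1 was -0.58 against ORC2, -0.54 against ORC3, -0.51 against ORC4, -0.57 against ORC5 and -0.21 against ORC6.

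CDC6 encodes the AAA+ ATPase that recruits CDT1 and the MCM ring to ORC. Its DMSO values were 10.11, 10.34 and 10.44 in set 1 and 9.75 and 9.75 in set 2, and its treated values were 9.56, 9.48 and 9.87 in set 1 and 8.94 and 9.16 in set 2. The treatments overlapped over all arrays, since the highest treated value of set 1 exceeded the DMSO values of set 2, but within each set every treated array lay below every DMSO array. That order within both sets held for 4 of the 10 genes (ORC1, CDC6, CDT1 and DTL) and for 1.45% of all probe sets. The log2 difference was -0.68 ± 0.11 (SE, n = 5), a level 1.60-fold lower (1.35 to 1.90), with a limma adjusted p of 0.141. It was -0.66 in set 1 and -0.70 in set 2. CDC6 passed in 5 of the 21 alternatives, among them the fit without DMSO replicate 1 (-0.73, limma adjusted p = 0.0495), quantile normalization (0.0385) and cyclic loess (0.0229). It did not pass without any one of the other 9 arrays (limma adjusted p = 0.112 to 0.473), without array set in the model (0.965), or in set 1 (0.999) or set 2 (0.702) alone.

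CDT1 encodes the protein that brings the MCM ring to the origin. It held 10.31, 9.44, 9.36, 9.38 and 9.48 on the DMSO arrays and 8.86, 8.51, 8.68, 8.62 and 8.59 on the treated arrays. DMSO replicate 1 was the highest of all here, where in the other 9 genes it lay below the mean of its treatment and set. The remaining 4 DMSO arrays spanned 9.36 to 9.48 and still lay above every treated array. The log2 difference was -0.94 ± 0.17 (SE, n = 5), or a level 1.93-fold lower (1.47 to 2.52), with a limma adjusted p of 0.207. Without DMSO replicate 1 it was smaller, -0.77, and passed (limma adjusted p = 0.0235). CDT1 passed in 3 of the 21 alternatives, each of which left out DMSO replicate 1 or gave it a low weight.

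GMNN, the gene of the CDT1 inhibitor geminin, had DMSO values of 7.80, 8.26, 8.36, 8.51 and 8.54 and treated values of 7.63, 7.84, 7.67, 7.72 and 7.65. The single overlap was between DMSO replicate 1 at 7.80 and PD0332991 replicate 2 at 7.84. The log2 difference was -0.59 ± 0.13 (SE, n = 5), or a level 1.51-fold lower (1.23 to 1.85, limma adjusted p = 0.408). It was -0.71 without DMSO replicate 1, with a limma adjusted p of 0.0311. GMNN passed in 2 of the 21 alternatives, the fit without DMSO replicate 1 and the fit with array weights, where that array had a weight of 0.15.

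DTL held 9.36, 10.01, 10.13, 9.76 and 9.68 on the DMSO arrays and 8.81, 8.48, 8.92, 8.39 and 8.59 on the treated arrays, with no overlap and its lowest DMSO value again in replicate 1. The log2 difference was -1.15 ± 0.16 (SE, n = 5), which left 45.1% of the DMSO level, at a limma adjusted p of 0.0499. The call sat on the threshold. It was kept without DMSO replicate 1 (-1.28, limma adjusted p = 0.00364) and lost without any other single array (-1.08 to -1.21, limma adjusted p = 0.112 to 0.255).

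No shift between CDT1 and its regulators, or between CDC6 and its partners, passed. The CDT1 value minus the GMNN value was 1.30 ± 0.68 (log2, SD, n = 5 arrays) in DMSO and 0.95 ± 0.20 with PD0332991, a shift of -0.35 ± 0.31 (SE, exact permutation p = 0.450, adjusted p = 0.506 over 9 pairs). For DTL minus CDT1 the shift was -0.20 ± 0.33 (exact permutation p = 0.583, adjusted p = 0.583). CDC6 shifted by -0.11 ± 0.10 against ORC1 (exact permutation p = 0.250, adjusted p = 0.375) and by 0.27 ± 0.26 against CDT1 (exact permutation p = 0.367, adjusted p = 0.471). Without DMSO replicate 1 the shift of DTL minus CDT1 was -0.51 (exact permutation adjusted p = 0.05, which does not pass), that of CDT1 minus GMNN was -0.06 and that of CDC6 minus CDT1 was 0.04 (adjusted p = 0.783 each, exact permutation). The pairs with CDT1 had the widest errors of the 9, and on DMSO replicate 1 CDT1 lay above, and the other genes below, the mean of their treatment and set, so these tests do not show that the genes changed alike.

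The treatment differences were below 0 in both array sets for DTL (-1.10 in set 1 and -1.23 in set 2), CDT1 (-1.02 and -0.83), CDC6, GMNN (-0.43 and -0.84), ORC1 (-0.65 and -0.45) and ORC6 (-0.16 and -0.33). ORC2 was above 0 in both (0.31 and 0.01), and ORC3, ORC4 and ORC5 were above 0 in set 1 and below it in set 2. The limma interaction of treatment with array set passed for 0 of the 10 genes, with 0 at an unadjusted p under 0.05. Over all probe sets 0.00% passed and 2.56% had an unadjusted p under 0.05. The smallest unadjusted interaction p among the 10 was 0.139, for GMNN, whose difference was lower by 0.41 ± 0.25 (SE, limma, n = 10 arrays) in set 2.

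**Figure D3:**
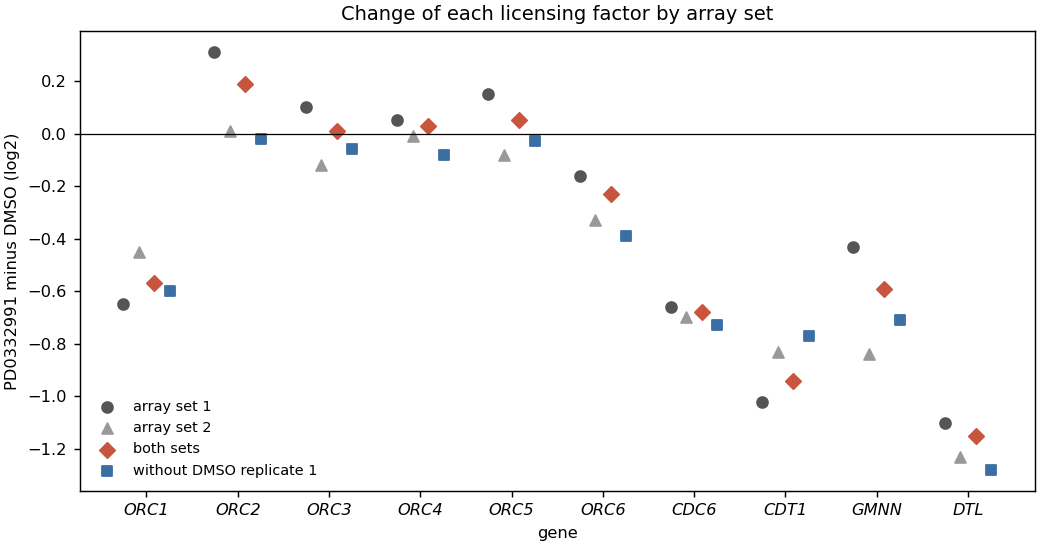
Log2 difference between PD0332991 and DMSO (y axis) for each gene in array set 1, array set 2, both sets together and without DMSO replicate 1. DTL, CDT1, CDC6, GMNN and ORC1 lie at -0.43 or below in every fit drawn, and ORC2, ORC3, ORC4 and ORC5 lie between -0.12 and 0.31.

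The genes that act with these factors were grouped by role. Of 53 listed, 43 were on single-symbol probe sets. In all, 37 had a log2 difference below 0 and 6 above, with a median of -0.20, and 4 passed as lower and 0 as higher. Of all probe sets, 55.2% had a difference below 0, with a median of -0.02, and 0.0409% passed as lower and 0.00910% as higher. Of these 43 genes, 4 were called lower without DMSO replicate 1 and 3 without DMSO replicate 2 or 3 or PD0332991 replicate 2 or 3. None was called without DMSO replicate 4 or 5 or PD0332991 replicate 1, 4 or 5. The MCM helicase subunits, which ORC, CDC6 and CDT1 load, were counted with their binding protein MCMBP: all 6 measured had differences below 0 (median -0.26) and 0 passed. MCM5 had -0.35 ± 0.10, MCM2 -0.31 ± 0.08, MCM3 -0.33 ± 0.16 and MCMBP -0.21 ± 0.10 (SE, n = 5), and MCM2 and MCM5 had an unadjusted limma p under 0.05. At that level 11 of the 43 genes were lower and 0 higher, against 2.76% of all probe sets as lower and 1.41% as higher. MCM7 was not measured on a single-symbol probe set.

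The kinase and cyclin group of origin control held 3 of the 4 calls. CCNE2 (-1.89) and CCNE1 (-0.95), the E-type cyclins of CDK2, and CDC25A (-1.09), the phosphatase that activates CDK2, passed at a limma adjusted p of 0.00911 each. All 9 measured genes of this group had differences below 0. DBF4B, which encodes an activating subunit of CDC7, had -0.18 and did not pass, and CDC7, the kinase that triggers the loaded helicase, had -0.31 ± 0.21 (SE, n = 5). Among 11 measured firing factors, which turn the loaded helicase into an active one, 10 had differences below 0 (median -0.32). MCM10 passed at the threshold (-0.77, limma adjusted p = 0.0499), and TICRR (-0.47 ± 0.11), CDC45 (-0.34 ± 0.09) and GINS3 (-0.50 ± 0.16) did not.

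The ubiquitin ligase genes were split. Of 10 measured, 5 were above 0 and 5 below, with a median of 0.03 and 0 calls. DDB1 and CUL4A, which carry DTL in the CRL4 ligase, had 0.13 ± 0.12 and -0.01 ± 0.11 (SE, n = 5), and CUL4B, the alternative scaffold, had 0.20 ± 0.14. SKP2, the receptor of another ligase that takes CDT1, had -0.27 ± 0.08 (limma adjusted p = 0.782), FBXO5, the inhibitor of the anaphase-promoting complex that spares geminin, -0.25 ± 0.16, and FBXO11, the receptor of a ligase that acts on DTL, 0.22 ± 0.16. The 3 other substrates of the DTL ligase gave no call, with CDKN1A at -0.24 ± 0.11, KMT5A at -0.24 ± 0.25 and TDG at -0.03 ± 0.10. Of the ORC and MCM relatives, MCM9 had -0.23 ± 0.17, MCM8 -0.14 ± 0.17, LRWD1, which binds ORC, -0.10 ± 0.09 and the acetyltransferase gene KAT7 -0.04 ± 0.10, none past the threshold.

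**Figure D4:**
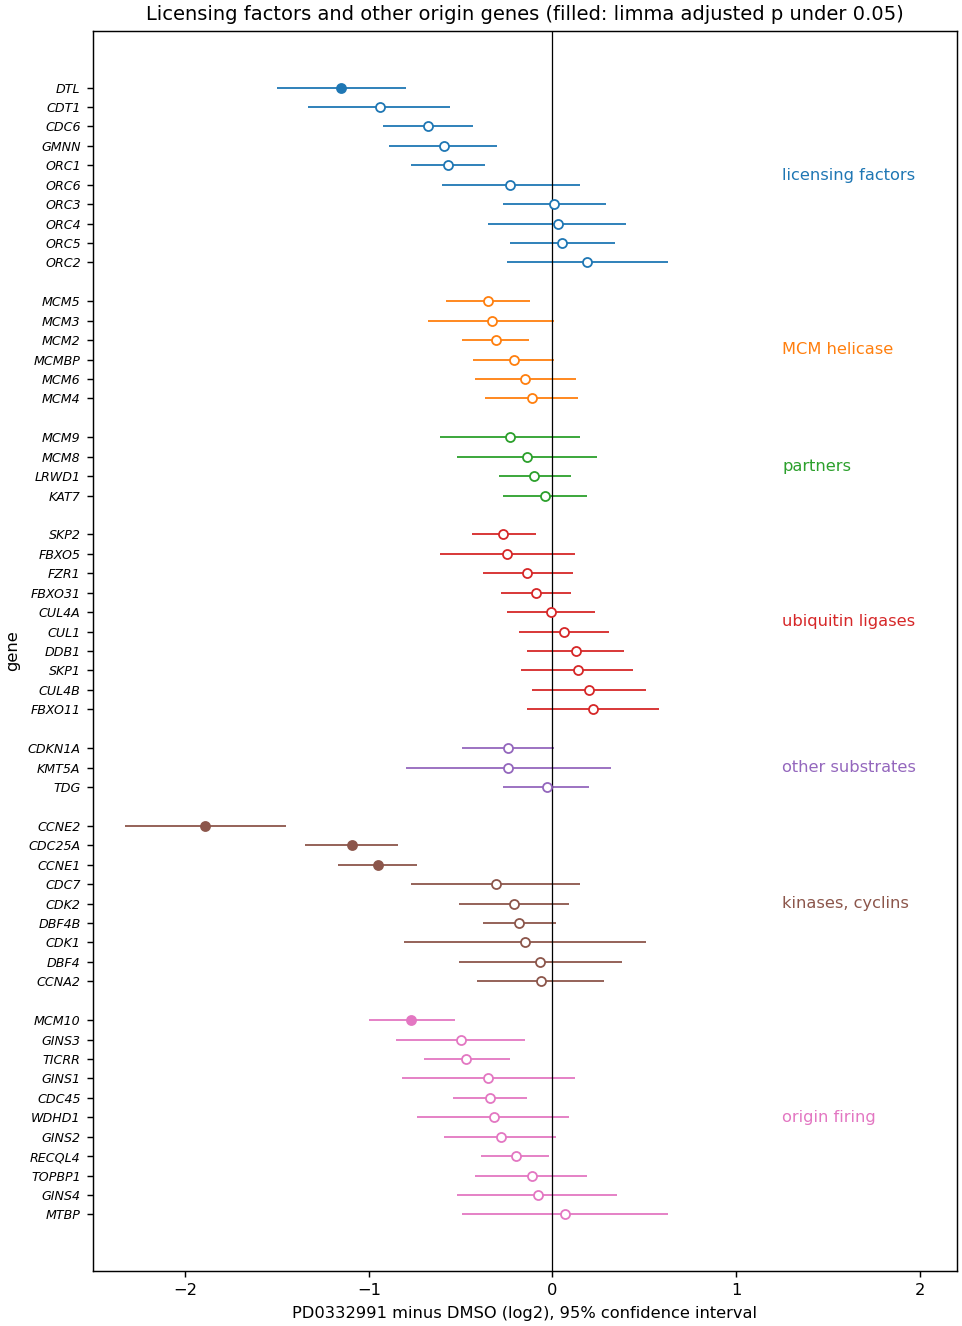
Log2 difference between PD0332991 and DMSO (x axis) with 95% confidence intervals from limma for the 10 licensing factors and 43 other origin genes in 6 groups; filled points passed the adjusted threshold. DTL, MCM10, CCNE1, CCNE2 and CDC25A are filled, and the ubiquitin ligase genes lie on both sides of 0.

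The array-by-array patterns of the 3 genes with the smallest p were set against all other single-symbol genes, as Pearson's r over the 10 arrays after subtracting each array set's mean. This likeness includes the treatment difference and the shared deviation of DMSO replicate 1, and it is given as a description. DTL was most like CCNE2 (r = 0.992), FAM111B (0.991), which encodes a protease, and MCM10 (0.988). CDC6 was most like FAM111B (0.994), POLD3 (0.984), a subunit of DNA polymerase delta, and DTL (0.981). ORC1 was most like RFWD3 (0.978), a ubiquitin ligase of DNA repair, the transcription factor gene MYB (0.975) and CENPV (0.971). Among the licensing factors, CDC6 was the 5th most like gene to DTL, ORC1 the 29th, GMNN the 55th, CDT1 the 342nd (r = 0.70) and ORC6 the 398th (0.68). ORC2 (r = 0.02), ORC5 (0.15), ORC4 (0.27) and ORC3 (0.28) stood far down the order.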

How the data were processed

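The deposited values are log2 expression per probe set, made by the authors with RMA, Partek and hg18, per the submitters' processing notes, without versions or parameters. RMA includes background correction and normalization between arrays, and it compresses changes of dim genes. Probe sets were named through the platform annotation (14432 with 1 symbol, 2408 with several, 5140 unnamed), and Entrez identifiers changed 0 symbols against RefSeq on GRCh38.p14.

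The 2-sided test of treatment used lmFit and eBayes (limma 3.58.1, R 4.3.3) with array set in the model, adjusted by Benjamini-Hochberg over 21980 probe sets at a threshold of 0.05. Differences between 2 genes were tested by exact permutation within array sets, adjusted over 9 pairs, with SciPy 1.17.1. The named genes were the 10 members, up to 4 genes of each role list with the smallest p, any past the threshold, and the 3 genes most like each of the 3 members with the smallest p; CUL4A and DDB1 were added as partners of DTL, CDC7 as a kinase, after their values were seen. Members and lists were chosen with earlier results of these data known, and the 9 pairs were drawn from those members. The alternatives changed the model, normalization, filter, weights, prior variance or arrays. On simulated data for this comparison (21980 probe sets, 67 changed by 0.5, 67 by 1 and 66 by 2 on the log2 scale), 11.9%, 71.6% and 97.0% were recovered, with 9 false calls. The simulated noise was independent for each probe set and array. No simulated array was made to stand apart as DMSO replicate 1 did, so these shares may not hold for the real arrays. More probe sets passed in the simulation than the 9 lower and 2 higher of the real data. That makes the adjusted threshold easier to pass there, so the shares may be too high for this comparison. P-values measure the spread between biological replicates as labelled, and the number of arrays limits their precision. The sequences are RefSeq's. Figures were drawn with Matplotlib 3.10.9.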

Additional observations from a re-analysis of the deposited data

Results flagged for a closer look

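In 5 genes DMSO replicate 1 lay outside the other 4 DMSO arrays by more than Dixon's 95% limit (a gap over range above 0.710). It held 7.61 for ORC2, against 8.52 to 8.69 on the others, 7.79 for ORC6, against 8.49 to 8.71, and 10.31 for CDT1, against 9.36 to 9.48. For MCM9 it held 6.48, against 7.24 to 7.46, and for GINS3 7.98, against 8.53 to 8.75. In CCNE1 the value of PD0332991 replicate 3, 9.41, lay above the other treated arrays (9.10 to 9.18). These are 6 of 66 groups of 5 arrays checked, and chance marks about 1 in 20 independent groups. The groups share the same arrays, and 5 of the 6 marks fall on DMSO replicate 1, so these shares are not a test against chance.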

How the results depend on the processing

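The 5 lower genes kept their sign in all 21 alternatives: DTL ran from -1.30 to -1.08, CDT1 from -1.03 to -0.77, CDC6 from -0.76 to -0.63, GMNN from -0.84 to -0.43 and ORC1 from -0.65 to -0.45; ORC6 also stayed below 0. The number of licensing factors called lower, 1, was 2 after quantile normalization, without the dimmest 33.3% of probe sets and with an intensity trend and robust prior. In each of these fits 11 of all probe sets tested were called lower. The number of licensing factors was also 2 without both arrays numbered 1 (all probe sets, 10). It was 3 after cyclic loess (all probe sets, 13) or with only single-symbol probe sets tested (14). With array weights, which gave DMSO replicate 1 the lowest weight, 0.15, it was 5 (limma adjusted p up to 0.0144, where 0.227% of all probe sets passed as lower). It was 0 in either array set alone and with replicate number as a block. No licensing factor was called higher in any alternative, and 0 had a called interaction in any alternative run for it. With 1 array left out the number called lower ran from 0 to 5, that of the other origin genes from 0 to 4, and that of all probe sets from 1 to 20 lower and 1 to 3 higher. Over all probe sets, 9 were called lower and 2 higher; this was 14 and 4 with single-symbol probe sets, 50 and 13 with array weights, 0 and 0 in either set alone, and 1 higher without array set in the model. Of the other origin genes, 0 were called lower in either set alone.

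The replicate block left 1 probe set called lower, 1 higher, 0 licensing factors (DTL adjusted p = 0.196) and 0 other origin genes. Same-numbered arrays deviated from their treatment mean with r of 0.04, 0.07, 0.54, 0.23 and 0.20 for numbers 1 to 5. From the mean of their treatment and set, r was 0.09, 0.02, 0.40, -0.05 and -0.05. Numbers 4 and 5 give the same r by construction, since set 2 has 2 arrays per treatment that mirror each other around their mean. Subtracting the means also ties numbers 1 to 3 together, so these are not 5 separate checks. Only number 3 stayed clearly above 0, and the numbers were not taken as pairs. With treatment swapped within replicate numbers, the smallest exact p of the 9 pairs of genes was 0.0625, above the threshold by construction.

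The shift of ORC1 against ORC2, ORC3, ORC4 and ORC5 was -0.76, -0.58, -0.60 and -0.62 under that swap, -0.78, -0.59, -0.61 and -0.63 after quantile normalization, -0.76, -0.58, -0.62 and -0.63 after cyclic loess, and -0.56, -0.50, -0.51 and -0.56 without both arrays numbered 1 (where the smallest exact p is 0.0556), none past the threshold. With 1 array left out these shifts ran from -0.85 to -0.58, -0.65 to -0.49, -0.68 to -0.49 and -0.67 to -0.53, and that against ORC6 from -0.41 to -0.21, which passed without PD0332991 replicate 4.

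ORC2, ORC3, ORC4 and ORC5, near 0, changed sign: -0.03, -0.07, -0.11 and -0.05 with array weights, -0.01, -0.07, -0.06 and -0.01 without both arrays numbered 1, and -0.12, -0.01 and -0.08 for ORC3, ORC4 and ORC5 in set 2. With 1 array left out they ran from -0.02 to 0.28, -0.06 to 0.07, -0.08 to 0.14 and -0.03 to 0.11. The alternative probe set of a gene was not run, since each gene had 1. The array weights came from an iteration that stopped before full convergence. Signals over background were not used here.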

Other observations

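Within treatments and array sets, CDT1 ran against the other licensing factors only with DMSO replicate 1 included. After the mean of each treatment and set was subtracted, Pearson's r between CDT1 and the other 9 genes over the 10 arrays ran from -0.97 (GMNN) to -0.46 (ORC3), while the 36 pairs without CDT1 had r of 0.33 to 0.97. These arrays share DMSO replicate 1, where CDT1 was 0.60 above the mean of its treatment and set and the other 9 genes were 0.15 to 0.70 below it. Without that array the pairs with CDT1 ran from -0.80 to 0.46 (median 0.07) and the other pairs from -0.72 to 0.95 (median 0.58). ORC3, ORC4 and ORC5 had r of 0.89 to 0.97 with each other, and 0.84 to 0.95 without that array. Subtracting the means leaves fewer independent values than arrays, and in set 2 the 2 arrays of each treatment mirror each other. The correlations are descriptions over arrays that share their processing.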
